A study of Mus musculus with 12 samples.

Results

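Fibroadipogenic progenitors are the PDGFRα-positive mesenchymal cells that lie between the fibres of skeletal muscle, and their transcripts were measured here in libraries made from another cell type, the satellite cell, sorted by a Pax7-ZsGreen reporter. The transcripts were the 10 rows of the raw-count table named Pdgfra, Ly6a, Dcn, Lum, Gsn, Dpt, Pi16, Cd248, Mfap5 and Clec3b, of 55401 genes in the table. All 10 passed the filter on low counts and were among the 25771 genes tested. The question asked of them was at what level they occur in sorted cells, how they differ between libraries, and whether that level differed with Cxcr4 genotype or with overnight culture.

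All mice were adults that carried 2 floxed Cxcr4 alleles (FL/FL) and the Pax7-ZsGreen reporter, and all received tamoxifen IP at 80 mg/kg on 5 consecutive days. The study's methods state that mice were then kept on a tamoxifen diet until an experiment ended. The KO mice also carried Pax7-creERT2, a satellite cell-driven, tamoxifen-activated Cre, and the WT mice lacked it, so deletion of Cxcr4 and presence of the Cre cannot be told apart. ZsGreen-positive cells that excluded propidium iodide were sorted from hind limb muscle and either lysed at once (quiescent, 4 WT and 4 KO libraries) or after overnight culture in growth medium (activated, 2 WT and 2 KO libraries). The labels do not say whether replicates came from separate mice, so p-values measure the spread between these samples.

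Fibroadipogenic progenitors secrete much of the collagen and proteoglycan matrix of muscle, send signals to satellite cells after injury, and can become adipocytes or fibroblasts. PDGFRα and the surface antigen Sca-1, the product of Ly6a, are the markers by which they are usually sorted, and Pi16 and Dpt are known from fibroblasts of many tissues. Not every marker is private to this lineage: Gsn is made by many cell types, Ly6a by endothelial and blood cells, and myogenic cells can make decorin.

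Total counts were 12775593 to 23717013 per quiescent library and 3172164 to 5427280 per activated library. Cxcr4 itself, the targeted gene, was at 80.5 ± 25.3 CPM (SD, n = 4) in WT quiescent and 17.1 ± 3.54 (n = 4) in KO quiescent libraries. It was at 23.9 ± 13.3 (n = 2) in WT activated and 9.54 ± 5.86 CPM (n = 2) in KO activated libraries. Here CPM are counts divided by the TMM-scaled library size and expressed in the usual CPM unit. The single activated libraries were at 33.3 and 14.4 CPM in WT and at 5.39 and 13.7 CPM in KO, so the lower WT library hardly differed from the higher KO library. The quiescent libraries held 1.20 to 7.17 CPM of Xist and 358 to 660 CPM of 4 Y-linked genes in sum, and the activated libraries 451 to 817 CPM and 0 to 2.51 CPM, so that culture and the sex of the mice cannot be told apart. One ribosomal RNA gene, CT010467.1, took 11.5% to 40.3% of the counts in activated libraries and under 1% in quiescent ones. All 12 satellite cell markers listed had counts in every quiescent library. So did every endothelial, blood cell, smooth muscle and pericyte, Schwann cell and muscle fibre marker listed, so having counts does not separate cell types. Summed satellite cell markers were at 6266 to 10541 CPM in quiescent libraries, and every other list at 5312 CPM or less. In activated libraries satellite cell markers were at 3098 to 4358 CPM and muscle fibre markers at 7512 to 17994 CPM. Pax7 stood at 66.8 RPKM in WT and 42.1 RPKM in KO quiescent libraries (CPM per kilobase of exon).

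The set of RefSeq promoter windows on GRCm38.p6 used here covered 4 of the 10 genes (Dpt, Gsn, Pdgfra and Pi16). The 250 bases before a start site are shown for Dpt and Gsn, which were lower after culture in both genotypes, and for Pdgfra, which was higher after culture in KO libraries. Capitals mark the E-box CAGCTG, a palindrome and so the same on both strands, which is a form bound by myogenic bHLH factors. These are chr1:164796413-164796662, chr2:35256109-35256358 (the first of 3 Gsn windows) and chr5:75152001-75152250, all on the plus strand.
Dpt: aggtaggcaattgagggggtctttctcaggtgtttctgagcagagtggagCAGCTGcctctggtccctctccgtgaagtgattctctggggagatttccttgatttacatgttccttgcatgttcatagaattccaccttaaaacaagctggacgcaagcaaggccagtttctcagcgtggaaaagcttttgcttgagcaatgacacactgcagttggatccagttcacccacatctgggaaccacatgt
Gsn: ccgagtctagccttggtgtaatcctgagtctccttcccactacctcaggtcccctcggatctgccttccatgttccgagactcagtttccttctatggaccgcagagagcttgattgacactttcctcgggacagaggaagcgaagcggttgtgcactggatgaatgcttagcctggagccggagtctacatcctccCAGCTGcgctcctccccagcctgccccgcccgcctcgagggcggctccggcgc
Pdgfra: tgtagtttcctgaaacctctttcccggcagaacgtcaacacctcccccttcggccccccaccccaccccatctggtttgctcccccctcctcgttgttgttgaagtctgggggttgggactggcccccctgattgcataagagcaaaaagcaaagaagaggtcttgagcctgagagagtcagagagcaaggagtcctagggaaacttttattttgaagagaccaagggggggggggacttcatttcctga
The Dpt window held 1 CAGCTG, at -200 from the start site, the first Gsn window 1, at -53, and the Pdgfra window 0. Other forms of the E-box were not searched for, so these are not counts of all E-boxes. Of the other Gsn windows, the second held 1, at -216, and the third 0, and the Pi16 window held 0. Of 32851 windows of this length, 13% held CAGCTG and 6.75% the AP-1 motif TGANTCA, searched on both strands. The AP-1 motif was in none of the 6 windows of the 4 genes. A match is a description of these letters only.

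Levels were read per length of transcript to compare genes. In WT quiescent libraries Dpt, which encodes the matrix protein dermatopontin, was at 181 ± 32.2 RPKM (SD, n = 4) and Gsn, the actin-severing protein gelsolin, at 140 ± 9.11 RPKM. These 2 transcripts overlapped each other in range and lay above the other 8. Ly6a followed at 41.6 ± 16.0 RPKM, and Dcn, the small leucine-rich proteoglycan decorin, at 10.9 ± 2.64 RPKM, each with no overlap with its neighbour above. Below these, Clec3b (tetranectin) was at 5.57 ± 1.42, Lum (lumican) at 3.71 ± 2.04, Cd248 (endosialin) at 2.21 ± 0.64 and Mfap5 (a microfibril protein) at 1.41 ± 0.47 RPKM. Pi16 at 0.996 ± 0.216 and Pdgfra at 0.789 ± 0.223 RPKM were the lowest. From Dcn down, each of these overlapped the next in range. The receptor that defines the lineage had the lowest mean per length of the 10, and Pax7 was at 66.8 RPKM in the same libraries. The order in KO quiescent libraries was the same except that Gsn, at 162 ± 24.1 RPKM, stood above Dpt, at 134 ± 68.5 RPKM, and every neighbouring pair overlapped there. In bulk libraries, fewer cells of a type and less RNA per cell cannot be told apart.

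Summed over the 10, the level was 906 ± 53.0 CPM (SD, n = 4) in WT quiescent and 902 ± 165 CPM in KO quiescent libraries. Dpt and Gsn made up 82.9% of the sum in WT quiescent and 82.1% in KO quiescent libraries. In activated libraries the sum was 222 ± 24.9 CPM in WT (n = 2) and 300 ± 73.2 CPM in KO (n = 2), and Dpt and Gsn were 38.5% and 35.4% of it. The sum of the 7 others without Ly6a, a grouping chosen after the values were seen, was 103 ± 24.5, 99.0 ± 56.0, 120 ± 7.27 and 175 ± 39.5 CPM in the same order of groups.

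**Figure D1:**
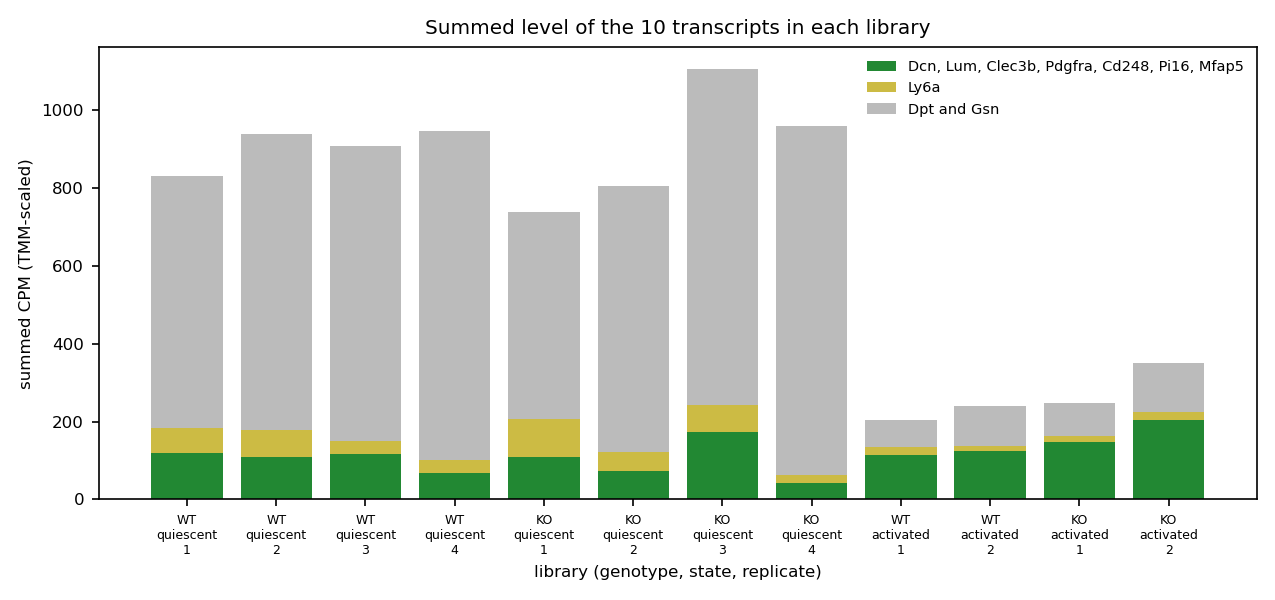
Summed level of the 10 transcripts in each of the 12 libraries (y axis, CPM after TMM scaling), split into Dpt and Gsn, Ly6a, and the other 7. The sum is 738 to 1108 CPM in the quiescent libraries and 204 to 351 CPM in the activated ones, and the lower sum lies in the Dpt, Gsn and Ly6a segments.

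Genotype in quiescent cells came first. No difference between KO and WT passed the test for any of the 10 transcripts (0 of 10 called by edgeR's quasi-likelihood test at a Benjamini-Hochberg adjusted p under 0.05, where a call also needed a change beyond 1 on the log2 scale and more than 10 normalized counts on average, and 0 at an unadjusted p under 0.05; by DESeq2, 0 called and 0 at that unadjusted p). Of all genes tested, 0.0155% were called. For each of the 10, the 4 KO libraries overlapped the 4 WT libraries in range. Of all genes tested, 0.869% had KO wholly above WT and 0.827% wholly below. Pdgfra was at 9.97, 7.66, 9.12 and 4.86 CPM in WT and 6.94, 3.07, 9.05 and 3.40 CPM in KO libraries, a log2 fold change of -0.49 ± 0.37 (SE). Gsn was at 405 to 471 CPM in WT and 425 to 583 CPM in KO libraries, 0.22 ± 0.21. Dpt was at 241 to 375 CPM in WT, and in KO libraries at 57.4, 259, 294 and 314 CPM, -0.43 ± 0.35. The KO library of replicate 1 was the lowest of the 8 for Dpt and the highest for Ly6a, at 98.2 CPM. Without it the KO mean of Dpt was 289 ± 28.1 CPM (SD, n = 3). The other 7 log2 fold changes ran from -0.37 (Clec3b, SE 0.44, and Pi16, SE 0.38) to 0.24 (Ly6a, SE 0.36), and the median over the 10 was -0.11, against 0.02 over all genes tested.

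**Figure D2:**
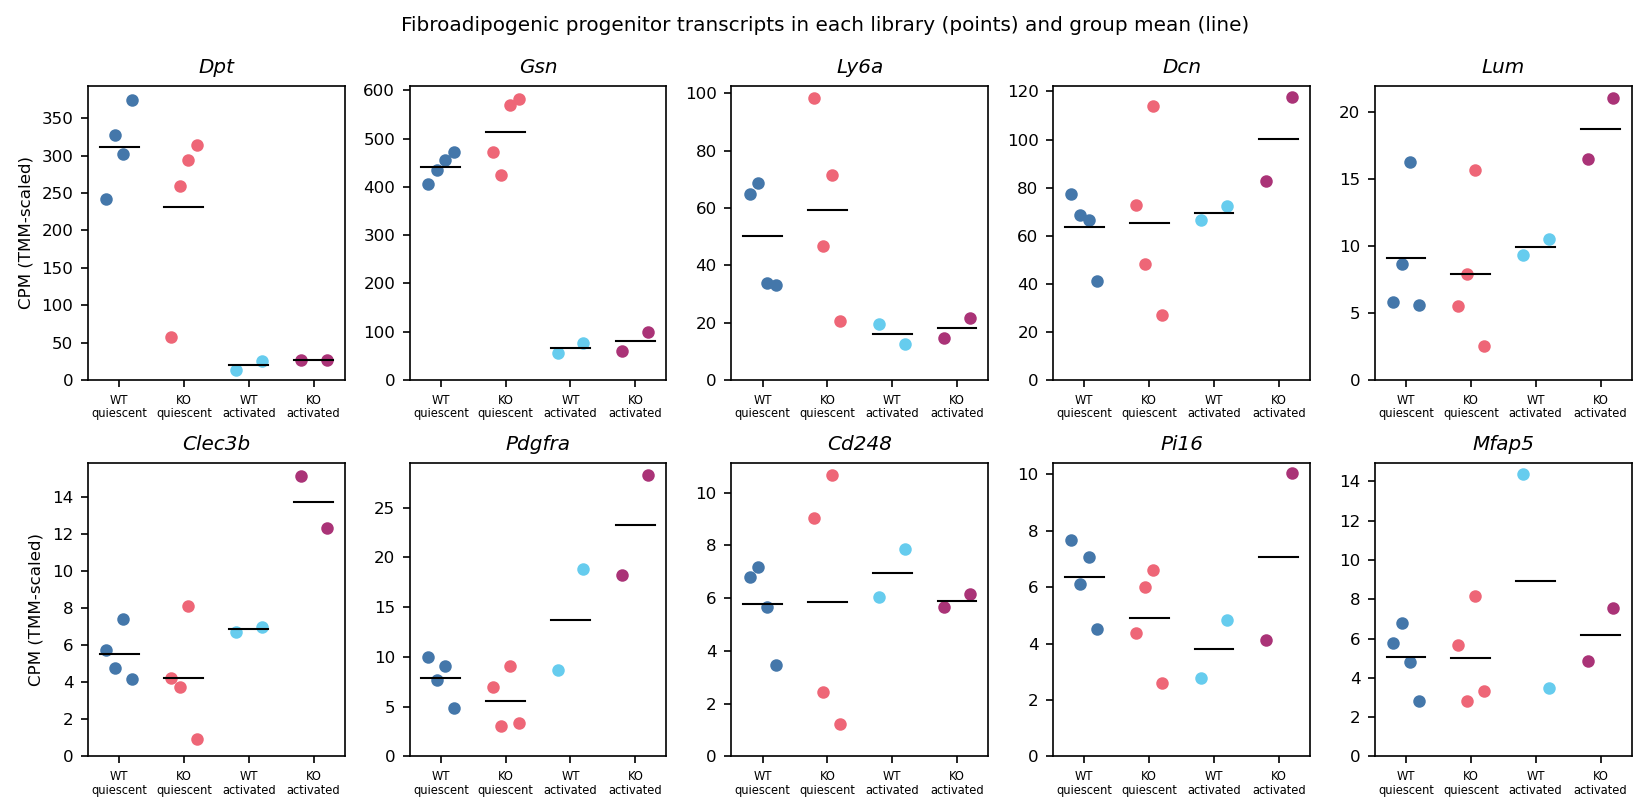
Level of each of the 10 transcripts (y axis, CPM after TMM scaling, from 0, its own scale in each panel) in every library of the 4 groups, with a line at the group mean. All activated libraries lie below all quiescent libraries for Gsn and Dpt, and the KO activated libraries lie above all quiescent ones for Pdgfra, Clec3b and Lum.

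Across the quiescent libraries 7 of the transcripts were high and low together. Over the 8 quiescent libraries, Pearson's r of log2 CPM had a median of 0.57 over the 45 pairs of the 10 genes, with 32 pairs positive. It was 0.79 over the 21 pairs of the 7 genes other than Dpt, Gsn and Ly6a, all 21 positive, with Dcn and Cd248 highest at 0.95 (a grouping chosen after the values were seen). Without the 2 libraries whose 7-gene sum was farthest from the median, KO replicates 3 and 4, the median was 0.52 and 20 of the 21 pairs stayed positive. Spearman's rho had medians of 0.76 with and 0.54 without them. Without them 18 of the 21 pairs were positive by rho, with a lowest value of -0.26. Dpt and Gsn were apart from the 7, with median r of -0.13 and -0.20 with the other members. All genes of a library share its depth, scaling and sort, so these r are descriptions over 8 points, without a test.

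**Figure D3:**
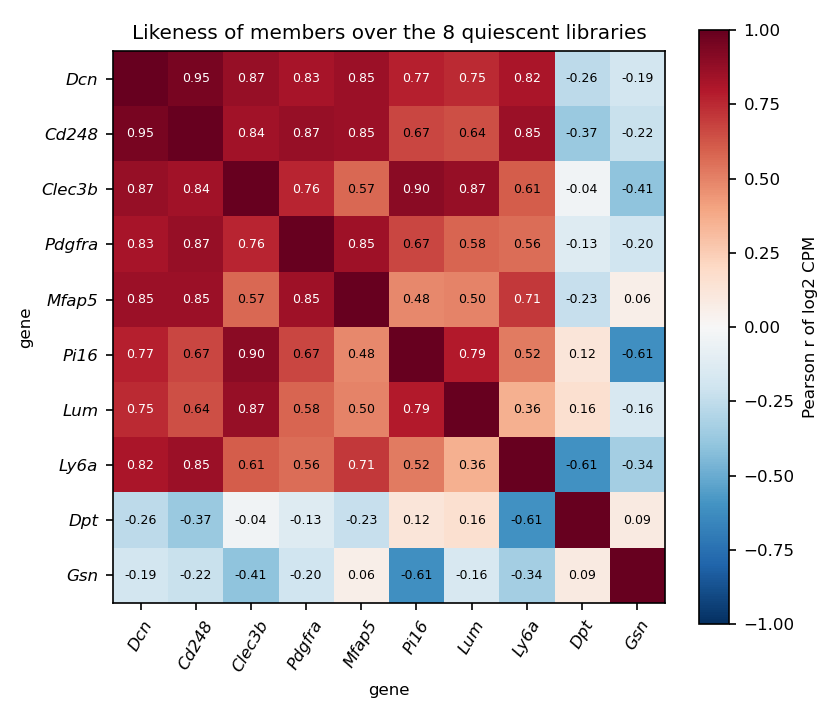
Pearson's r of log2 CPM between each pair of the 10 transcripts over the 8 quiescent libraries, as colour (blue -1 to red 1) and number. The pairs of Dcn, Cd248, Clec3b, Pdgfra, Mfap5, Pi16 and Lum are all positive, Ly6a is positive with each of these 7, and 13 of the 17 pairs that include Dpt or Gsn are negative.

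The library of KO quiescent replicate 3 held the highest value of 4 of the 10 transcripts and KO quiescent replicate 4 the lowest of 6. For Cd248 these were 10.7 and 1.23 CPM, for Clec3b 8.10 and 0.944 CPM and for Dcn 114 and 27.0 CPM. Gsn varied least, 1.44-fold from lowest to highest. The same libraries were also highest or lowest for other lists of markers. KO replicate 3 had the highest summed level of 23 other fibroblast and matrix genes (5312 CPM, against 1197 to 3408 in the other 7 quiescent libraries), of tendon markers (928 CPM, against 175 to 782) and of smooth muscle and pericyte markers (2928 CPM, against 1575 to 2869, so close to the next). KO replicate 4 had the lowest endothelial sum (367 CPM, against 607 to 1754) and the highest blood cell sum (485 CPM, against 96.6 to 227). It also had the highest satellite cell sum (10541 CPM, next 10048). Its sums were the lowest for Schwann cell (262 CPM), adipocyte (149), tendon (175, next 180) and smooth muscle and pericyte markers (1575, next 1613). For the 23 other fibroblast and matrix genes it was at 2775 CPM, and KO replicate 1 was the lowest at 1197 CPM. Col1a1, the type I collagen chain, ran from 58.6 to 1507 CPM within KO quiescent libraries. The part of other cells in these values was not tested.

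By the rule for likeness, each transcript was compared with the mean of the 9 others across 25760 genes. Dcn ranked 1st of all of them (r = 0.95), Cd248 23rd, Clec3b 63rd, Pdgfra 148th, Mfap5 222nd, Lum 575th, Pi16 658th, Ly6a 1950th, Dpt 17862nd and Gsn 19527th. Among genes outside the 10, the most alike to the mean of all 10 over the 8 libraries were Fstl5 (r = 0.95), Krtcap2 (0.95), Inpp5b (0.94), Vmn1r72, Ddah1 and Dok1 (0.94 each), Col6a3 (0.93) and 9230116L04Rik (0.93). Fstl5, Vmn1r72 and 9230116L04Rik were at only 1.00, 0.702 and 0.631 CPM on average, the last at 0 in 1 library. Of the 23 other fibroblast and matrix genes, 2 were in the top 100 of the 25759 genes ranked.

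Activation was compared within each genotype, with culture and sex confounded as stated above. In WT, Dpt, Gsn and Ly6a were lower after culture and none of the 10 was higher. Of all genes tested 16.5% were lower and 9.65% higher, 26.2% in either direction. In KO, the same 3 were lower and Pdgfra and Clec3b were higher, with 18.5% and 11.1% of all genes lower and higher (29.6% either). By range alone, 3 of the 10 were wholly lower and 0 wholly higher in WT (38.4% and 17.6% of all genes), and 2 wholly lower and 3 wholly higher in KO (36.1% and 18.3%). The median log2 fold change of the 10 was 0.12 in WT and 0.43 in KO, while that over all genes tested was -0.92 and -0.96. The median over all genes depended on the filter, and was -0.46 and -0.49 at a mean count of at least 10.

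Dpt was at 241, 327, 302 and 375 CPM in WT quiescent libraries and at 13.6 and 25.4 CPM in WT activated libraries, with no overlap. Its log2 fold change was -4.04 ± 0.55 (adjusted p = 1.50e-05 by edgeR's quasi-likelihood test), that is 16.4-fold lower. In KO libraries it was at 57.4 to 314 CPM and at 26.2 and 26.9 CPM, -3.12 ± 0.51 (edgeR adjusted p = 0.000105). Gsn was at 405 to 471 CPM and at 56.9 and 76.6 CPM in WT, -2.73 ± 0.30 (edgeR adjusted p = 1.32e-06), and at 425 to 583 CPM and at 59.8 and 99.7 CPM in KO, -2.68 ± 0.30 (edgeR adjusted p = 1.28e-06). Both held in all 19 alternatives, leaving out each library included.

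Ly6a was at 64.9, 68.5, 33.8 and 33.2 CPM in WT quiescent and at 19.4 and 12.7 CPM in WT activated libraries, with no overlap, -1.61 ± 0.50 (edgeR adjusted p = 0.0187). In KO it was at 98.2, 46.7, 71.5 and 20.5 CPM and at 14.6 and 21.7 CPM, where the ranges overlapped, -1.70 ± 0.49 (edgeR adjusted p = 0.0118). Neither call held without 1 activated library: without WT replicate 2 the WT value was -1.31 (edgeR adjusted p = 0.154), and without KO replicate 1 the KO value was -1.45 (adjusted p = 0.114). Ly6a resembles Ly6i at 85.6% of bases over 84.2% of its transcript, and how the counting treated reads that map to both is not given in the sources used here.

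Pdgfra was at 9.97, 7.66, 9.12 and 4.86 CPM in WT quiescent and at 8.66 and 18.8 CPM in WT activated libraries, which overlapped, 0.76 ± 0.46 (edgeR adjusted p = 0.210). In KO libraries it was at 6.94, 3.07, 9.05 and 3.40 CPM and at 18.2 and 28.3 CPM, with no overlap, 2.04 ± 0.44 (edgeR adjusted p = 0.00125), that is 4.12-fold higher. It remained called without each library in turn and in the other 7 alternatives. Clec3b was at 4.23, 3.76, 8.10 and 0.944 CPM in KO quiescent and at 15.2 and 12.3 CPM in KO activated libraries, 1.68 ± 0.53 (edgeR adjusted p = 0.0187), and 0.30 ± 0.56 in WT (adjusted p = 0.683). Its call was lost without KO activated replicate 1 (edgeR adjusted p = 0.134) or replicate 2 (adjusted p = 0.0505).

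Lum was at 5.48, 7.93, 15.7 and 2.55 CPM in KO quiescent and at 16.4 and 21.0 CPM in KO activated libraries, 1.24 ± 0.52 (edgeR adjusted p = 0.0738), which did not pass. It passed without KO quiescent replicate 3 (adjusted p = 0.00895), with no filter on low counts (0.0123) and with a replicate block (0.00242), all by edgeR. Dcn was at 63.4 ± 15.4 and 69.5 ± 3.96 CPM (SD, n = 4 and 2) in WT quiescent and activated libraries, 0.13 ± 0.39, and at 65.5 ± 37.3 and 100.2 ± 24.8 CPM in KO, 0.61 ± 0.38 (edgeR adjusted p = 0.211), but passed in KO without KO quiescent replicate 3 (1.03, adjusted p = 0.0318). Cd248, Pi16 and Mfap5 did not pass in either genotype, with log2 fold changes between -0.80 and 0.89 and counts as low as 8 (Mfap5), 11 (Pi16) and 18 (Cd248) in single activated libraries. Mfap5 in WT activated libraries was at 14.4 and 3.50 CPM.

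**Figure D4:**
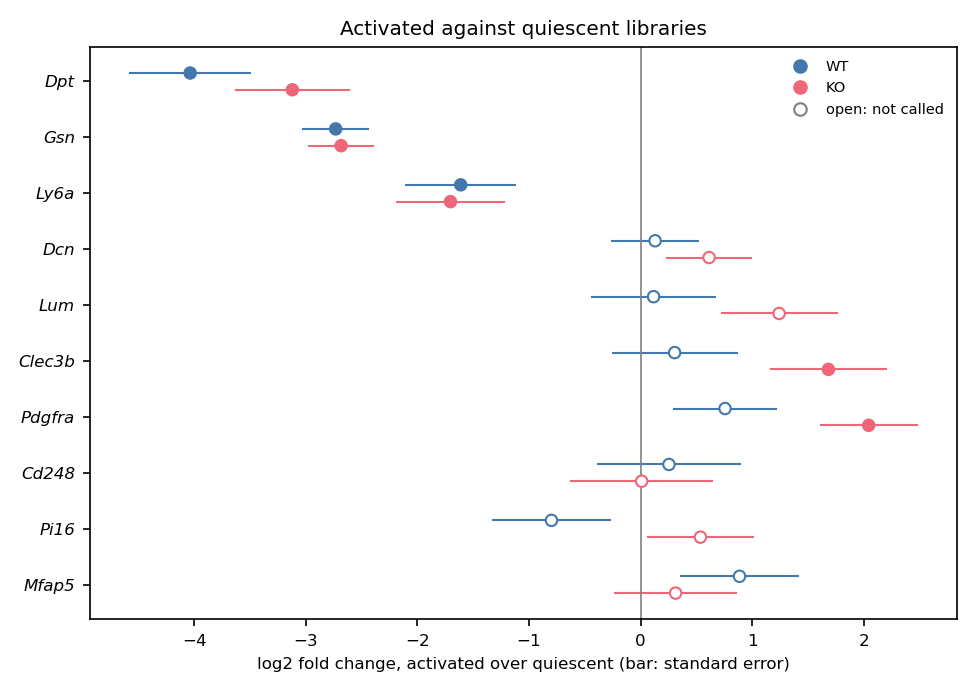
log2 fold change of activated over quiescent libraries for each transcript in WT (blue) and KO (red), with bars of 1 standard error, filled where the gene was called. Dpt, Gsn and Ly6a lie left of 0 in both genotypes, and Pdgfra and Clec3b are filled on the right in KO only.

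A call in KO and not in WT does not show that the genotypes differ. The difference of the KO effect between states was tested as an interaction: 0 of 10 transcripts were called (smallest adjusted p 0.780 by edgeR, 0 at an unadjusted p under 0.05; DESeq2 called 0), and 0% of all genes. With no filter on low counts 3 of the 10, and with a replicate block 4, had an unadjusted p under 0.05, and none was called. In the main fit 1699 of the 25771 genes tested had such a p for this difference. The share of all genes with no filter or with the block was not taken, so these counts have no background. For Pdgfra the difference was 1.29 ± 0.66 and for Clec3b 1.38 ± 0.79.

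In activated libraries, no difference between KO and WT passed the test for the 10 (0 called, 0 at an unadjusted p under 0.05, smallest adjusted p 0.723 by edgeR; DESeq2 called 0), with 0.0504% of all genes called. The estimates of 8 were above 0 and the median was 0.51, against 0 over all genes. The ranges of Dcn, Lum, Dpt and Clec3b did not overlap, with KO higher, as they were for 15.2% of all genes tested, and in none of the 10 was KO wholly lower, as in 9.5% of all genes. Clec3b was at 6.70 and 7.01 CPM in WT and 15.2 and 12.3 CPM in KO libraries, a log2 fold change of 1.00 ± 0.66, and Pi16 was at 2.78 and 4.82 against 4.11 and 10.0 CPM, 0.96 ± 0.61. With 2 libraries a group the standard errors of the 10 were 0.30 to 0.76 on the log2 scale.

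**Figure D5:**
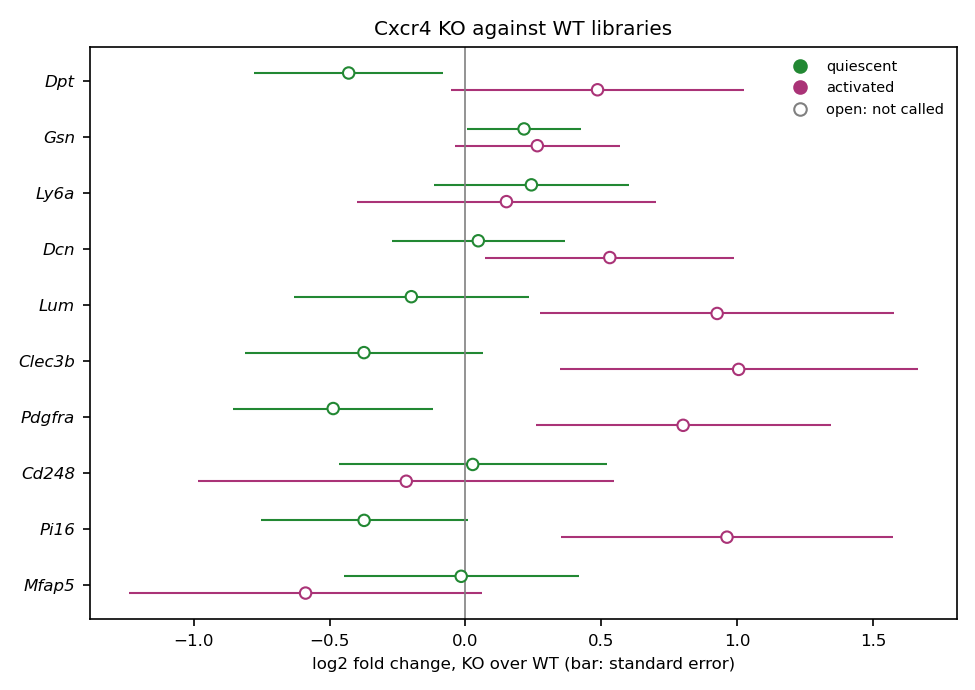
log2 fold change of KO over WT for each transcript in quiescent (green) and activated (purple) libraries, with bars of 1 standard error. All points are open, since none of the 10 was called in either state, and the activated bars are wider than the quiescent ones.

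Other fibroblast and matrix genes, a list of 23 chosen with earlier results of these data known, were set beside the 10. None was called between KO and WT in either state. After culture 11 of 23 were lower and 0 higher in WT, and 12 lower and 1 higher in KO, beside 16.5% lower and 9.65% higher of all genes in WT and 18.5% and 11.1% in KO. Hsd11b1, a glucocorticoid-activating enzyme, had log2 fold changes of -4.24 in WT and -4.01 in KO. The corresponding values were -3.60 and -2.87 for Col15a1, -3.36 and -2.44 for Col3a1, the type III collagen chain, and -2.49 and -2.92 for Thy1. Cxcl14, a chemokine, rose by 1.42 on the log2 scale in KO. Col1a1 did not pass in WT (-0.53 ± 0.87) or KO (-1.63 ± 0.92).

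Markers of other cells were counted over the same comparison. Of all genes, 16.5% were lower and 9.65% higher in WT, and 18.5% and 11.1% in KO. In WT and KO, 9 and 10 of 12 satellite cell markers were lower, 7 and 9 of 11 smooth muscle and pericyte markers, 4 and 3 of 10 endothelial, 4 and 6 of 11 blood cell, 5 and 4 of 6 Schwann cell and 1 and 3 of 7 tendon markers, with 0 higher in each of these lists. All 10 muscle fibre markers were higher in both genotypes, and of 6 adipocyte markers 1 was higher and 1 lower in each. Their summed levels in WT quiescent and activated libraries were 6266 to 10048 and 3098 to 4082 CPM for satellite cell, 1613 to 2869 and 292 to 454 CPM for smooth muscle and pericyte, and 305 to 724 and 7512 to 16639 CPM for muscle fibre markers. Tyrobp was at 0 in both WT activated libraries. The part of other cells in the changes of Dpt, Gsn and Ly6a was not tested.

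The rows lie at distinct loci on GRCm38. Pdgfra (chromosome 5, 75152292 to 75198215, plus strand), Dcn (10, 97479609 to 97518143, plus), Lum (10, 97565128 to 97572703, plus), Gsn (2, 35256380 to 35307892, plus), Dpt (1, 164796644 to 164824266, plus), Ly6a (15, 74994877 to 74998031, minus), Pi16 (17, 29317680 to 29330593, plus), Cd248 (19, 5068078 to 5070682, plus), Mfap5 (6, 122505845 to 122529290, plus) and Clec3b (9, 123150946 to 123157432, plus) are whole genes, counted over their exons. Dcn and Lum, both small leucine-rich proteoglycans, are neighbours on chromosome 10. Exons of Pdgfra overlap those of Gm42802, Gm42803 and Mir7025, which held 0, 1 and 0 counts in all 12 libraries. Exons of Pi16 overlap the antisense gene AC162182.1, with a shared stretch of 225 bases, 5.63% of the Pi16 transcript, and without strand in the counting the reads of the genes cannot be told apart within it.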

How the data were processed

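Poly(A) RNA of sorted cells was sequenced as paired 150-base reads (NEBNext Ultra kit). Per the study's methods and processing notes, the authors trimmed reads with Trim Galore 0.6.0, mapped them to GRCm38.p6 with STAR 2.7.2a, counted them per GENCODE gene with Rsubread and used DESeq2 1.34.0. The strand setting and the treatment of multi-mapped reads are not given in the sources used here. The deposited values are raw counts for 55401 genes in 12 libraries, and FPKM by the authors, 1 value per group, which were 0.967 to 1.04 times the mean RPKM computed here for the 10 transcripts.

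Samples were grouped by their labels. In R 4.3.3, edgeR 4.0.16 removed genes with low counts (filterByExpr), scaled libraries by TMM and fitted 1 quasi-likelihood model of 4 group means; p-values were adjusted by Benjamini-Hochberg over all 25771 genes. A gene was called at an adjusted p under 0.05 where it also changed by more than 1 on the log2 scale and averaged more than 10 normalized counts. The standard error is the log2 fold change divided by the square root of F. Log2 CPM used a prior count of 2. RPKM used GENCODE M21 exon lengths, whose build is GRCm38. Near-identical transcripts were sought with BLAST 2.17.0, and promoters were taken from RefSeq. Scripts were tested on simulated data.

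The 10 transcripts are all named, as are the 8 genes most like them and up to 4 called genes per direction of the list of other fibroblast genes; the members and lists were chosen with earlier results of these data known. Alternatives were DESeq2 1.42.0, its size factors within edgeR, other filters, the adjusted p alone, the compared groups alone, a replicate block and leaving out each library. The depth of 3172164 to 23717013 counts bounds the precision, and counts of single low genes cover counting error only.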

Additional observations from a re-analysis of the deposited data

How the results depend on the processing

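The calls of Dpt and Gsn on activation in both genotypes, and of Pdgfra in KO, were made under every alternative run, with log2 fold changes of -4.46 to -3.54 and -3.43 to -2.57 for Dpt, -2.90 to -2.45 and -3.08 to -2.37 for Gsn (WT and KO) and 1.71 to 2.38 for Pdgfra. No alternative called any of the 10 between KO and WT or for the difference between states. Of 940 alternative values for single transcripts, 881 kept direction and side of the threshold, 51 changed sign, 4 lost and 4 gained the threshold. The cause of these moves was not tested, and the 2 activated libraries a group and their depth limit what could be detected.

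Over leaving out each library, members called in KO on activation numbered 3 (without KO activated replicate 1) to 7 (without KO quiescent replicate 3), against 5, and in WT 2 to 3. All genes called numbered 3 to 7 for KO against WT in quiescent libraries (7 without KO quiescent replicate 3), 0 to 211 in activated ones (0 without WT replicate 1, 211 without WT replicate 2), 4481 to 6962 on activation in WT, 5020 to 7767 in KO and 0 to 82 for the difference. The summed CPM of the 10 in WT activated libraries was 219 to 249. For KO against WT in quiescent libraries log2 fold changes ran from -0.44 to 0.36 for Cd248, -0.36 to 0.30 for Dcn, -0.78 to 0.25 for Lum, -0.12 to 0.53 for Ly6a and -0.36 to 0.19 for Mfap5. In activated libraries they ran from -0.031 to 0.89 for Dpt, -0.21 to 0.57 for Gsn, -0.22 to 0.42 for Ly6a and -1.29 to 0.73 for Mfap5. On activation they ran from -0.020 to 0.27 for Dcn, -0.049 to 0.57 for Lum and -0.45 to 1.57 for Mfap5 in WT, and from -0.32 to 0.48 for Cd248, -0.022 to 0.67 for Mfap5 and -0.24 to 1.03 for Pi16 in KO. The difference between states ran from -0.58 to 0.22 for Cd248, -0.42 to 0.34 for Gsn, -0.45 to 0.26 for Ly6a and -1.27 to 0.74 for Mfap5.

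With no filter on low counts, 47 genes were called for KO against WT in quiescent and 332 in activated libraries and 170 for the difference, and Mfap5 was at 0.011 (KO against WT, quiescent) and Cd248 at -0.0089 (activation, KO). For KO against WT in activated libraries, DESeq2 called 166 genes, DESeq2's size factors 8, a mean count of at least 10 called 2 and the compared groups alone 3. For the difference, DESeq2 called 53 genes and gave Gsn -0.013, and its size factors gave Gsn -0.021. The median log2 fold change over all genes on activation was -0.46 and -0.49 (WT, KO) at a mean count of at least 10 and -1.93 and -1.84 with no filter.

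Same-numbered WT and KO libraries deviated from their group means with correlations of 0.24, 0.16, -0.27 and 0.59 in quiescent and -0.07 and -0.07 in activated libraries. With 2 libraries a group the deviations mirror each other, so the 2 activated values are equal by construction and count as 1. Not every library correlated best with its own number. The total counts of same-numbered quiescent libraries were close (17532019 and 17238391, 12775593 and 13075208, 23058947 and 22897189, 22785815 and 23717013). The labels do not say what a number marks, and pairing was not established by these values. With a replicate block 1 member had an unadjusted p under 0.05 for KO against WT in each state and none was called. In the main fit 448 (quiescent) and 2158 (activated) of the 25771 genes tested had such a p. The share of all genes with the block was not taken. With the block 3 genes were called for the difference between states, 6 members on activation in KO (Lum added, 1.60) and 3 in WT. With the block Dcn was at -0.11 and Cd248 at -0.37 for KO against WT in quiescent libraries, and Ly6a at 0.035 and Cd248 at 0.15 for the difference.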
